A study of Mus musculus with 8 samples.

Results

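Myostatin and the activins are secreted signals of the TGF-beta superfamily that limit the size of muscle. The family was followed here in the ventricles of tumor-bearing mice as 10 genes matched by symbol in the deposited table of 43346 mouse genes. They comprise 5 ligands (Mstn, Inhba, Inhbb, Gdf11 and Gdf15), 2 secreted antagonists (Fst and Fstl3) and 3 receptors (Acvr2a, Acvr2b and Acvr1b). The rule used their place in the pathway and no measured value, and they were picked with earlier results of these data known. The study asked which mRNAs differ in the heart in cancer cachexia, the wasting that accompanies a tumor. Male C57BL/6 mice received LLC1 cells, a mouse lung adenocarcinoma line, or the PBS vehicle alone at the age of 7 weeks, and heart ventricles were taken 14 days later from 4 mice of each kind. The labels list no engineered allele and no drug, and the model is limited to 1 tumor line, implanted into young males and sampled once. The 8 libraries come from 8 animals, named below by injection and by the code in their label: LLC1 1-2, 1-3, 1-5 and 2-2, and PBS 1-1, 1-3, 2-1 and 2-5.

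Myostatin, GDF11 and the activins, which are dimers of the inhibin beta subunits encoded by Inhba and Inhbb, bind the type II receptors ACVR2A and ACVR2B. These recruit a type I receptor such as ACVR1B (ALK4), which phosphorylates SMAD2 and SMAD3. In skeletal muscle this signal lowers protein synthesis and favors the ubiquitin ligases of atrophy. Follistatin (Fst) and follistatin-like 3 (Fstl3) trap the ligands outside the cell. GDF15 is a distant relative that acts through the brainstem receptor GFRAL with RET, reduces appetite, and is made by stressed tissues including heart muscle. Cardiac muscle makes little myostatin compared with skeletal muscle.

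Per kilobase of gene length, the receptors Acvr1b and Acvr2a were the most abundant members in these hearts and Mstn the least abundant. Of the 7 members with enough counts for a test, 0 differed between tumor-bearing and PBS-injected mice past the threshold, which 8.73% of all genes tested passed. The values nearest to it were those of Acvr2b and Acvr1b, with higher means in tumor-bearing mice. With libraries scaled to total counts only, the nearest were those of Gdf11 and Acvr2a, with lower means. Follistatin, at 1 to 12 counts per library and too low for the test, was the single member whose groups did not overlap. Among all genes tested, which leave Fst out, 17.2% had groups that did not overlap, and the share at counts this low was not computed.

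The start regions of the least abundant member, Mstn, and of the most abundant members, Acvr2a and Acvr1b, are shown as the start regions of the genes at the ends of the order of levels. Each runs from 250 bases before to 50 bases after the RefSeq transcription start (build GRCm38.p6), on the plus strand, with every CG dinucleotide in capitals. The positions are chr1:53061390-53061689 for Mstn, chr2:48813859-48814158 for Acvr2a and chr15:101173822-101174121 for Acvr1b.
Mstn: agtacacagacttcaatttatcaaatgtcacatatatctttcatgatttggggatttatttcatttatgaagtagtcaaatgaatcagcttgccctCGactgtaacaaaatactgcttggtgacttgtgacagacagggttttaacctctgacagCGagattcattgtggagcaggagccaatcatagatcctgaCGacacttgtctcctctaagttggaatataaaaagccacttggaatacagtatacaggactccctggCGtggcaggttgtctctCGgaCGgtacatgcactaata
Acvr2a: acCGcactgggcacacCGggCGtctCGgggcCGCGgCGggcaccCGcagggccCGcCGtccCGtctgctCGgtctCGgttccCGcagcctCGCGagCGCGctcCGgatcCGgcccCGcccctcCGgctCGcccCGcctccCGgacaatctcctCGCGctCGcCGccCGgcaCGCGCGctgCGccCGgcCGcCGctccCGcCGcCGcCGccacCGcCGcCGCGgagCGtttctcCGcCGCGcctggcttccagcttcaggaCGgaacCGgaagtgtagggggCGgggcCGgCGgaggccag
Acvr1b: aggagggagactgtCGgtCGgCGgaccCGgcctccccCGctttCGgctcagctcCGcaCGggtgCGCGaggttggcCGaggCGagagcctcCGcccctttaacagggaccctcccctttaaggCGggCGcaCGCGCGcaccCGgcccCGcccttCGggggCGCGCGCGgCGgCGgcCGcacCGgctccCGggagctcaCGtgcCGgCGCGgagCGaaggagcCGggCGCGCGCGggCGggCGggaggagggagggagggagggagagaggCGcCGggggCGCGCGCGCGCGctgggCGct
The Mstn window held 6 CG dinucleotides, the Acvr2a window 54 and the Acvr1b window 51. Over all 32851 windows of the same 300 bases the median was 7 and the quartiles were 3 and 20, so that 99.7% of windows held fewer than Acvr2a and 99.3% fewer than Acvr1b. Among the other members the count was 7 in Inhba, 23 in Inhbb, 25 in Fstl3, 27 in Acvr2b and 36 in Gdf11, and the 2 listed starts of Gdf15 had 1 and 7. Fst has no window in the table. The RefSeq start lay 266 bases from the start of the deposited gene for Acvr2b and 361 bases from it for the inner start of Gdf15.

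For motifs, 3 short ones were looked for on both strands of these windows. The letters TATAAA, the core of the TATA box, were present in the windows of Mstn, Inhba, Gdf11 and Fstl3 and in 13.6% of all windows. In Mstn they began 29 bases before the start on the strand printed here, which is that of the mRNA, and in Fstl3 29 bases before it on the other strand. CAGAC, which holds the bases of a SMAD binding element, occurred in Mstn, both Gdf15 windows, Fstl3, Acvr2a and Acvr2b, against 49.6% of all windows. CANNTG, the E-box bound by muscle regulatory factors, occurred 4 times in Mstn, 3 times in Fstl3, 3 times and 1 time in the Gdf15 windows, and 1 time each in Gdf11 and Acvr1b, and 72.3% of all windows held it. These matches are descriptions of the letters in these windows.

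The deposited values are raw read counts per gene. Counts on genes ranged from 15342214 to 19747596 in tumor-bearing mice and from 12480706 to 16192158 in PBS-injected mice. Levels are given as normalized CPM, which is CPM after TMM scaling of the libraries, so that 1 count was worth 0.0503 to 0.0858 CPM. Of 16111 genes with enough counts to test, 663 were called higher and 743 lower in tumor-bearing mice, where a call is a false discovery rate (FDR) under 0.05 by edgeR's quasi-likelihood test. That is 8.73% of the genes tested, 4.12% higher and 4.61% lower. With scaling to total counts only, 22.1% of the calls were higher in place of 47.2%. As a check of the labelled tissue, the summed level of cardiomyocyte markers was 80017 to 83281 CPM in LLC1 mice and 67604 to 71069 CPM in PBS mice, with 2 of the 6 called higher (Myh6 and Mybpc3). Myh6 made up most of that sum, and Ryr2 had a lower mean in LLC1 mice (2603 against 2928 CPM, not called). Markers of skeletal muscle, which expresses Mstn strongly, summed to 2.84 to 3.12 CPM against 2.66 to 4.14 CPM, with Myh4 at 0 counts in every library. Summed fibroblast markers were 184 to 221 CPM against 223 to 316 CPM (2 of 4 called lower), endothelial markers 617 to 737 CPM against 714 to 969 CPM (1 of 4 called lower), and dividing-cell markers 2.04 to 4.49 CPM against 13.4 to 42.3 CPM (3 of 3 tested called lower). The smooth muscle and pericyte, macrophage, atrial and erythroid lists had 0 genes called, with 2, 2, 1 and 0 genes at an unadjusted p under 0.05, and no adipocyte marker had enough counts to test. In whole ventricle, fewer cells of a type and less RNA per cell cannot be told apart, and the part of cell composition in the values below was not tested.

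To compare one gene with another, normalized CPM was divided by the gene length in the deposited table. In PBS-injected hearts the type I receptor Acvr1b stood at 5.72 ± 0.597 CPM per kilobase (SD, n = 4). The type II receptor Acvr2a followed at 4.29 ± 0.651 CPM per kilobase, and 3 of the 4 PBS mice had more Acvr1b than Acvr2a. The antagonist Fstl3 stood at 2.33 ± 0.230 CPM per kilobase and the second type II receptor, Acvr2b, at 1.41 ± 0.273. The ranges of Acvr2a, Fstl3, Acvr2b and Inhbb did not overlap from one to the next in PBS mice.

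All ligands lay below these. Inhbb, the beta subunit of activin B, had 0.794 ± 0.236 CPM per kilobase in PBS mice (SD, n = 4), Gdf11 0.511 ± 0.114 and Gdf15 0.418 ± 0.0738. Neighbors in that order overlapped in range, as did Gdf15 and Inhba, at 0.327 ± 0.138 CPM per kilobase. Fst, at 0.0981 ± 0.0505, and Mstn, at 0.0636 ± 0.0283 CPM per kilobase, came last, and the ranges of Inhba, Fst and Mstn each overlapped with the next. In tumor-bearing hearts the order was the same for the first 5 genes, and Gdf15 stood above Gdf11 (0.391 against 0.385 CPM per kilobase) and Fst above Inhba (0.233 against 0.230), each pair within its spread. The lengths listed for Inhba, Fst and Acvr2b (1980, 2337 and 1753 bases) are shorter than the exon bases of GENCODE M21 (6390, 4589 and 3928), so their place in this order depends on the annotation.

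**Figure D1:**
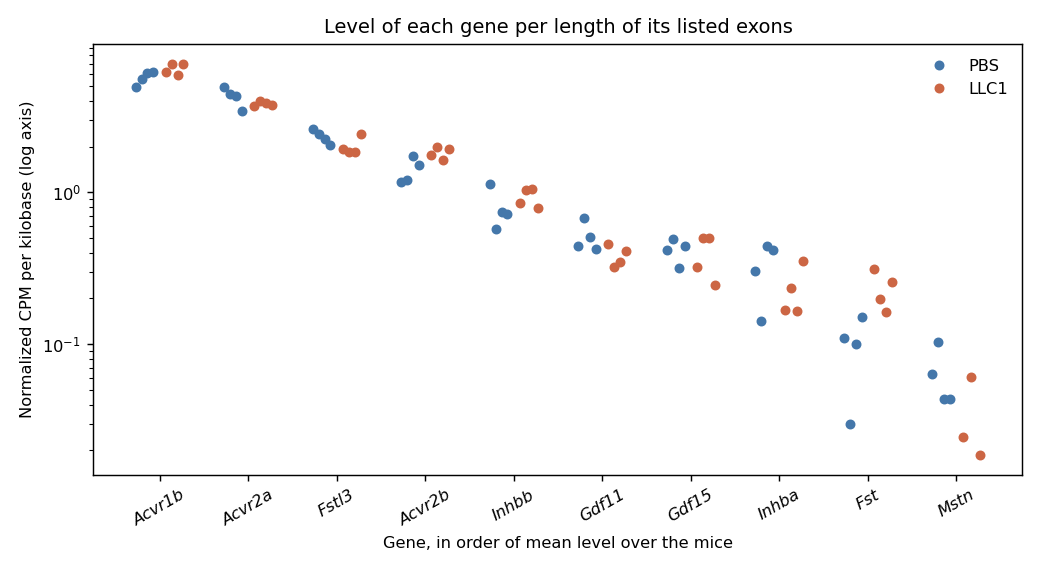
Normalized CPM per kilobase of listed gene length on a log axis for the 10 genes in order of mean level, with 1 point per mouse (PBS blue, LLC1 orange). Acvr1b and Acvr2a lie highest and Mstn lowest, and the LLC1 1-3 library, with 0 Mstn counts, has no point for Mstn because a log axis cannot show it.

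Myostatin itself was close to the limit of detection. Mstn (ENSMUSG00000026100, chromosome 1, 53061640 to 53068079, mm10) had 1, 0, 3 and 1 counts in LLC1 mice 1-2, 1-3, 1-5 and 2-2, and 2, 4, 2 and 2 counts in PBS mice 1-1, 1-3, 2-1 and 2-5. The totals were 5 counts over the tumor-bearing mice and 10 over the PBS-injected mice, with LLC1 1-5 inside the PBS range. In normalized CPM the means were 0.0701 ± 0.0687 and 0.172 ± 0.0766 (SD, n = 4 each), and an exact two-sided permutation test (70 ways to assign the 8 mice) gave p = 0.0857. The smallest p that this test can give is 0.0286. Leaving out LLC1 1-5, the mouse inside the PBS range, separates the groups by the choice of mouse. The difference in mean log2 CPM was then -0.84 (exact permutation p = 0.0286). Without LLC1 1-3, at 0 counts, that difference was -0.45 (exact permutation p = 0.229). With any mouse but LLC1 1-5 left out, the exact permutation p ran from 0.0857 to 0.229. The gene was too low for the test across all genes, and a difference in myostatin mRNA was not detected with these counts in 4 mice per group.

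Of the activin subunits, Inhba, which forms activin A, was also below the test's minimum. Inhba (ENSMUSG00000041324, chromosome 13, 16011851 to 16027211) had 5, 7, 6 and 14 counts in LLC1 mice 1-2, 1-3, 1-5 and 2-2 and 7, 4, 15 and 14 counts in PBS mice 1-1, 1-3, 2-1 and 2-5. The groups overlapped over most of their range, at 0.456 ± 0.177 against 0.648 ± 0.273 CPM (SD, n = 4 each; exact permutation p = 0.314). The difference in mean log2 CPM was -0.37, and it was -0.66 without PBS 1-3 and -0.22 without PBS 2-1.

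Inhbb had the highest level per kilobase of the 5 member ligands. Inhbb (ENSMUSG00000037035, chromosome 1, 119415465 to 119422248) had 3.64, 4.41, 4.49 and 3.37 CPM in LLC1 mice 1-2, 1-3, 1-5 and 2-2 and 4.80, 2.45, 3.18 and 3.07 CPM in PBS mice 1-1, 1-3, 2-1 and 2-5. The 4 tumor-bearing mice lay above 3 of the PBS mice, while PBS 1-1 had the highest value of all. Its log2 fold change was 0.25 (SE 0.20, 95% interval -0.18 to 0.69) with an FDR of 0.462 in edgeR's quasi-likelihood test. It was 0.44 (FDR 0.111) without PBS 1-1 and 0.13 (FDR 0.751) without PBS 1-3 in the same test. Inhbb made up 47.4% ± 2.83 of the summed ligand level per kilobase in LLC1 mice and 37.1% ± 7.89 in PBS mice (SD, n = 4 each).

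Gdf11, a close relative of myostatin, had the lowest fold change of the members tested. Gdf11 (ENSMUSG00000025352, chromosome 10, 128882295 to 128891718) had 1.85, 1.32, 1.42 and 1.66 CPM in LLC1 mice 1-2, 1-3, 1-5 and 2-2 and 1.80, 2.73, 2.06 and 1.71 CPM in PBS mice 1-1, 1-3, 2-1 and 2-5. Only LLC1 1-2 reached into the PBS range. The log2 fold change was -0.41 (SE 0.21, 95% interval -0.87 to 0.05, FDR 0.251 in edgeR's quasi-likelihood test), on 20 to 39 counts per library. Without PBS 1-3 it was -0.26 (FDR 0.527 in the same test).

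Gdf15, the ligand of stressed tissue, showed no separation of the groups. Gdf15 (ENSMUSG00000038508, chromosome 8, 70629393 to 70632456) had 0.595, 0.922, 0.930 and 0.453 CPM in LLC1 mice 1-2, 1-3, 1-5 and 2-2 and 0.772, 0.911, 0.589 and 0.826 CPM in PBS mice 1-1, 1-3, 2-1 and 2-5. The 2 highest and the lowest values were all from tumor-bearing mice. On the log2 scale the fold change was -0.10 (SE 0.31, FDR 0.875 in edgeR's quasi-likelihood test), and its 95% interval, -0.77 to 0.57, spans 0.587-fold to 1.49-fold on 9 to 17 counts per library. Without LLC1 2-2 the log2 fold change was 0.08, so its sign rests on that mouse.

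**Figure D2:**
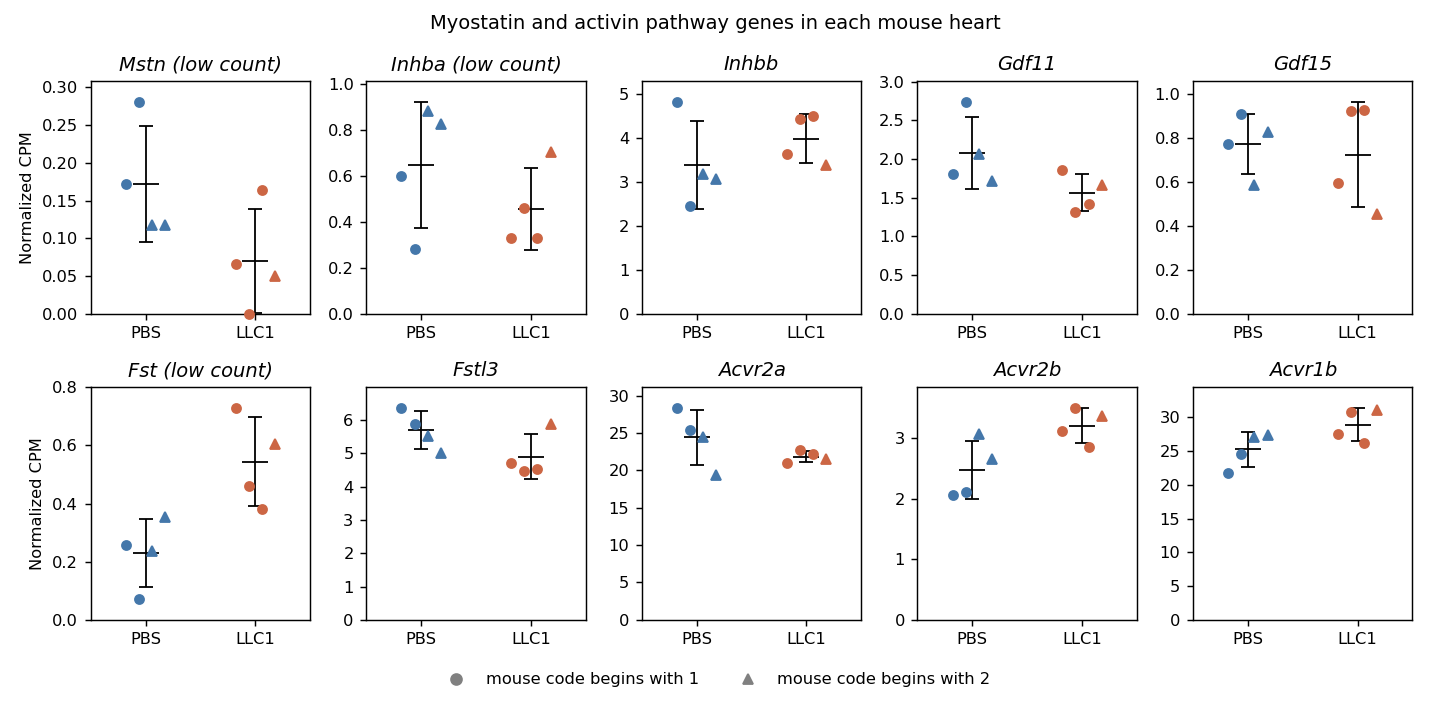
Normalized CPM of the 10 genes in each mouse (vertical axes from 0), with circles for mouse codes beginning with 1 and triangles for codes beginning with 2, and the group mean and SD in black (n = 4 each). Fst is the 1 panel in which the 4 LLC1 values all lie above the 4 PBS values, at 7 to 12 counts against 1 to 6. Among all genes tested, which leave Fst out, 17.2% show a separation in either direction.

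Follistatin binds activins almost irreversibly, and it also binds myostatin. Fst (ENSMUSG00000021765, chromosome 13, 114452262 to 114458730) had 11, 7, 7 and 12 counts in LLC1 mice 1-2, 1-3, 1-5 and 2-2, and 3, 1, 4 and 6 counts in PBS mice 1-1, 1-3, 2-1 and 2-5. Every tumor-bearing mouse lay above every PBS-injected mouse, with 37 counts in all against 14 and with LLC1 1-5 (0.383 CPM) close to PBS 2-5 (0.354 CPM). The means were 0.544 ± 0.153 and 0.229 ± 0.118 CPM (SD, n = 4 each), and the exact two-sided permutation test gave p = 0.0286, the smallest it can give, without adjustment for the other members. With libraries scaled to total counts only, that p was 0.0571.

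Fst did not pass the filter on low counts. When all genes with a count were fitted, its log2 fold change was 1.21 (SE 0.49, 95% interval 0.20 to 2.21) with an unadjusted p of 0.0205 and an FDR of 0.172 in edgeR's quasi-likelihood test, so it was not called there either. The spread between mice, 28.1% of the mean in LLC1 and 51.5% in PBS mice, was no larger than the 32.9% and 53.5% that counting alone gives at these counts. Leaving out LLC1 1-2, 1-3, 1-5 or 2-2, or PBS 1-3, gave an exact permutation p of 0.0571, and leaving out any other mouse gave 0.0286, while the difference in mean log2 CPM was 0.96 with all mice and 0.70 to 1.13 in those 8 tests.

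Fstl3, the second antagonist, was far more abundant. Fstl3 (ENSMUSG00000020325, chromosome 10, 79777272 to 79782630) had 4.70, 4.48, 4.54 and 5.89 CPM in LLC1 mice 1-2, 1-3, 1-5 and 2-2 and 6.35, 5.89, 5.53 and 5.02 CPM in PBS mice 1-1, 1-3, 2-1 and 2-5. The first 3 LLC1 mice lay below all PBS mice, and LLC1 2-2 lay among them. Its log2 fold change was -0.20 (SE 0.14, 95% interval -0.50 to 0.09, FDR 0.375 in edgeR's quasi-likelihood test). Without LLC1 2-2 it was -0.32 (FDR 0.210 in the same test). On the other strand, Prss57 shares 47.3% of the exon bases of Fstl3, and the library kit does not mark strand, so reads of the 2 genes cannot be told apart there. Prss57 had 42 to 70 counts in LLC1 and 41 to 61 counts in PBS mice, against 68 to 117 and 74 to 94 counts for Fstl3.

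Acvr2a and Acvr2b are the type II receptors that bind the ligands first. Acvr2a (ENSMUSG00000052155, chromosome 2, 48814109 to 48903269) had 21.0, 22.8, 22.2 and 21.5 CPM in LLC1 mice 1-2, 1-3, 1-5 and 2-2 and 28.3, 25.4, 24.5 and 19.4 CPM in PBS mice 1-1, 1-3, 2-1 and 2-5. The tumor-bearing mice lay close together, below 3 PBS mice and above PBS 2-5. The log2 fold change was -0.15 (SE 0.10, 95% interval -0.38 to 0.07, FDR 0.382 in edgeR's quasi-likelihood test). Without PBS 2-5 the groups no longer overlapped, with a difference of -0.26 in mean log2 CPM (exact permutation p = 0.0286) and an FDR of 0.0624 in edgeR's quasi-likelihood test. Without PBS 1-1 that difference was -0.070 (exact permutation p = 0.514) and the FDR 0.648 in edgeR's quasi-likelihood test. On the other strand Orc4 shares 7.84% of the exon bases of Acvr2a.

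Acvr2b, the type II receptor with the highest affinity for myostatin, had its higher values in tumor-bearing mice. Acvr2b (ENSMUSG00000061393, chromosome 9, 119402444 to 119433501) had 3.11, 3.49, 2.84 and 3.37 CPM in LLC1 mice 1-2, 1-3, 1-5 and 2-2 and 2.06, 2.10, 3.06 and 2.66 CPM in PBS mice 1-1, 1-3, 2-1 and 2-5. Only PBS 2-1 reached into the range of the tumor-bearing mice. For Acvr2b the log2 fold change was 0.36 (SE 0.17, 95% interval -0.02 to 0.73), with an unadjusted p of 0.0600 and an FDR of 0.218 in edgeR's quasi-likelihood test. The exact permutation p was 0.0571, and 0.143 with scaling to total counts only. Leaving out PBS 2-1, the mouse in that range, separates the groups by the choice of mouse (difference 0.47 in mean log2 CPM, exact permutation p = 0.0286). Without LLC1 1-2, 1-3 or 2-2, or PBS 1-1 or 1-3, that p was 0.114.

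Acvr1b, the type I receptor, was the most abundant member. Acvr1b (ENSMUSG00000000532, chromosome 15, 101174067 to 101213679) had 27.5, 30.7, 26.2 and 31.1 CPM in LLC1 mice 1-2, 1-3, 1-5 and 2-2 and 21.8, 24.5, 27.1 and 27.4 CPM in PBS mice 1-1, 1-3, 2-1 and 2-5. LLC1 1-5 lay within the PBS range, LLC1 1-2 was level with PBS 2-5, and the other tumor-bearing mice lay above the PBS range. The log2 fold change was 0.19 (SE 0.09, 95% interval -0.01 to 0.39), with an unadjusted p of 0.0601 and an FDR of 0.218 in edgeR's quasi-likelihood test (exact permutation p = 0.114).

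Among the PBS mice, both receptors were higher in those with codes beginning with 2 than in those beginning with 1, and the labels do not give the meaning of that number. Among mice with codes beginning with 1, the 3 LLC1 mice had 26.2 to 30.7 CPM of Acvr1b and the 2 PBS mice 21.8 and 24.5. Among mice with codes beginning with 2, LLC1 2-2 had 31.1 CPM and the 2 PBS mice 27.1 and 27.4. Acvr2b lay in the same order within each code number, with 2.84 to 3.49 CPM against 2.06 and 2.10, and with 3.37 CPM against 3.06 and 2.66. With that number as a covariate in edgeR's quasi-likelihood test, the log2 fold change of Acvr1b was 0.24 (SE 0.08, unadjusted p = 0.00982, FDR 0.0707) and that of Acvr2b 0.44 (SE 0.17, unadjusted p = 0.0235, FDR 0.117). Neither passed the FDR threshold. For Acvr2b, scaling to total counts only gave 0.30 (FDR 0.359 in the same test), and leaving out PBS 1-3 gave 0.28 (FDR 0.417). With scaling to total counts only, the log2 fold change of Acvr1b was 0.13 (FDR 0.512 in the same test), and with 1 mouse left out it ran from 0.13 without PBS 1-1 (FDR 0.340) to 0.24 without LLC1 1-5 (FDR 0.194).

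The type II receptors were also compared as a ratio of levels per kilobase, which does not depend on how libraries are scaled. The ratio of Acvr2b to Acvr2a was 0.481, 0.497, 0.415 and 0.509 in LLC1 mice 1-2, 1-3, 1-5 and 2-2, and 0.236, 0.269, 0.404 and 0.444 in PBS mice 1-1, 1-3, 2-1 and 2-5. Only PBS 2-5 reached into the range of the tumor-bearing mice, and PBS mice 1-1 and 1-3 had the lowest ratios. The size of each ratio depends on the listed length of Acvr2b (1753 bases, against 3928 exon bases in GENCODE M21), which scales all 8 mice alike. The means were 0.476 ± 0.0417 and 0.338 ± 0.101 (SD, n = 4 each). The means of the log2 ratios differed by 0.54, with an exact permutation p of 0.0571. PBS 2-5 was the PBS mouse inside the LLC1 range, so leaving it out separates the groups by the choice of mouse. The log2 ratios then differed by 0.68 (exact permutation p = 0.0286). Without PBS 1-1 they differed by 0.38 (exact permutation p = 0.0857). With any mouse but PBS 2-5 left out, the exact permutation p ran from 0.0571 to 0.143.

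Antagonists and ligands were compared as a ratio of sums over members. The ligand sum includes Gdf15, which acts through GFRAL and made up 19.6% of it in LLC1 and 19.9% in PBS mice. The sums depend on the listed lengths of Inhba and Fst, and most of the antagonist sum is Fstl3, which shares exon bases with Prss57. The ratio describes these sums and is no measure of the balance between antagonists and the ligands they bind. The ratio of summed antagonist to summed ligand level per kilobase was 1.22, 0.970, 0.947 and 1.46 in LLC1 mice 1-2, 1-3, 1-5 and 2-2 and 1.15, 1.23, 1.15 and 1.07 in PBS mice 1-1, 1-3, 2-1 and 2-5. The tumor-bearing mice lay on both sides of the PBS range. The means were 1.15 ± 0.244 and 1.15 ± 0.0622 (SD, n = 4 each). The means of the log2 ratios differed by -0.02, LLC1 minus PBS (exact permutation p = 0.914), and the sign of this small difference turned without LLC1 1-3, LLC1 1-5 or PBS 1-3.

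The sums themselves were 1.97 ± 0.169 and 2.11 ± 0.165 CPM per kilobase for ligands, 2.24 ± 0.302 and 2.43 ± 0.210 for antagonists, and 12.2 ± 0.753 and 11.4 ± 0.530 for receptors, LLC1 before PBS (SD, n = 4 each). Fstl3 supplied most of the antagonist level, with Fst contributing 10.4% ± 2.50 of it in LLC1 mice and 4.11% ± 2.31 in PBS mice, shares that depend on its short listed length. Acvr1b supplied 53.5% ± 1.46 of the receptor level in LLC1 mice and 50.1% ± 4.61 in PBS mice.

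**Figure D3:**
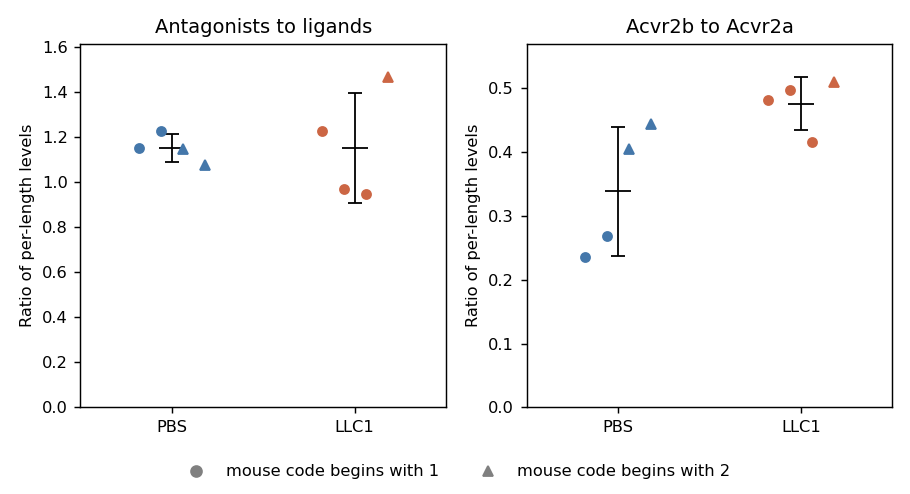
Ratios of summed levels per kilobase in each mouse, antagonists to ligands (left) and Acvr2b to Acvr2a (right), with group mean and SD in black (n = 4 each) and symbols by mouse code as in the plot of the 10 genes. The left ratio has the same mean of 1.15 in both groups, and on the right the LLC1 mice lie at 0.415 to 0.509 against 0.236 to 0.444 in PBS mice.

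Across the members, 0 of the 7 members tested were called in edgeR's quasi-likelihood test, against 8.73% of all genes. None of the 7 had an unadjusted p under 0.05, a level reached by 4103 of the 16111 genes. DESeq2 and limma-voom called 0 members as well. Nor did the groups of any of the 7 separate completely, as they did for 17.2% of the genes tested. Over the 7, the largest change in either direction that the 95% intervals allow is 1.66-fold for Acvr2b and 0.548-fold for Gdf11. These values are mRNA in the ventricle, and ligand made by the tumor or by other organs and carried in blood was not measured here.

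The rest of the pathway was taken as 52 genes in 7 lists, of which 46 were tested. Of these 5 were called higher and 5 lower in tumor-bearing mice, beside 4.12% higher and 4.61% lower over all genes tested. The other 36 were not called, and the median log2 fold change was -0.03 beside -0.01 over all genes tested. Fstl1 and Foxo3 kept their calls in all 8 fits that left out a mouse. The other 8 genes lost theirs without PBS 1-3, and all of them but Furin without LLC1 1-3. Of the 8 fits, Wfikkn2 and Fbxo32 kept their calls in 2 each and Skil in 3. Ret, Tgif1 and Trim63 kept theirs in 4 each, Tgfbr1 in 6 and Furin in 7. Without LLC1 1-5 or LLC1 2-2, 5 pathway genes were called. Among 3 other ligand and inhibin subunits, only Inha, the inhibin alpha subunit that turns beta subunits into inhibins, was tested, at a log2 fold change of 0.24 (FDR 0.292 in edgeR's quasi-likelihood test).

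**Figure D4:**
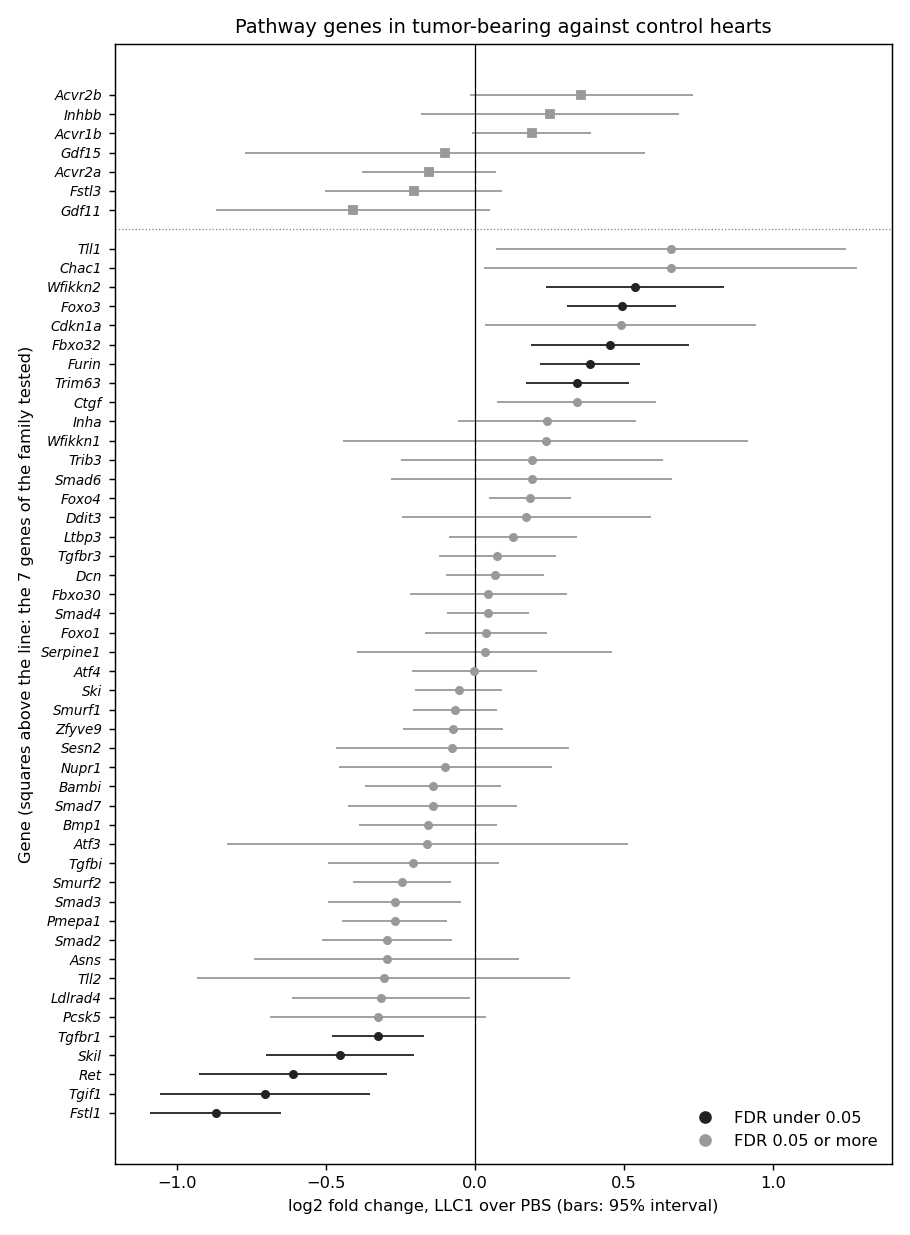
Log2 fold change, LLC1 over PBS, with its 95% interval for the 7 members tested (squares, top) and the 46 other pathway genes tested (circles), in black for calls by edgeR's quasi-likelihood test. All 7 members are gray, and Foxo3 (0.49) and Fstl1 (-0.87) are among the 10 genes in black.

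Of 10 genes listed as processing enzymes and other extracellular inhibitors, all tested, 2 were higher and 1, Fstl1, lower. A place in this list is no measure of inhibition, and binding of these ligands by Fstl1 was not tested. Furin, the protease that cleaves the precursors of these ligands, had 115 to 139 CPM in LLC1 and 91.6 to 110 CPM in PBS mice (log2 fold change 0.39, SE 0.08, FDR 0.0120 in edgeR's quasi-likelihood test). That FDR was 0.0644 with scaling to total counts only. Wfikkn2, a secreted protein that binds myostatin and GDF11, rose by 0.54 on the log2 scale (SE 0.14, FDR 0.0322 in edgeR's quasi-likelihood test), with 7.94 CPM in LLC1 1-2 beside 7.89 CPM in PBS 1-1.

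Fstl1, a secreted glycoprotein with a follistatin-like domain, had 72.8, 66.1, 75.4 and 79.4 CPM in LLC1 mice 1-2, 1-3, 1-5 and 2-2 and 105, 145, 142 and 144 CPM in PBS mice 1-1, 1-3, 2-1 and 2-5. The groups were far apart, with a log2 fold change of -0.87 (SE 0.10, FDR 0.000876 in edgeR's quasi-likelihood test). Fstl1 is expressed by fibroblasts and other stromal cells, whose summed markers above were also lower in tumor-bearing mice, and their part in this difference was not tested. The lower fibroblast sum came mostly from the matrix genes Col1a1 and Lum, while Pdgfra (-0.07, FDR 0.654) and Tcf21 (-0.21, FDR 0.331 in edgeR's quasi-likelihood test) were not called.

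At the cell surface, 2 of the 4 other receptors and co-receptors tested were lower and 0 higher. Tgfbr1 (ALK5), a type I receptor that also serves GDF11 and myostatin, had 20.3 to 21.5 CPM in LLC1 and 24.6 to 27.8 CPM in PBS mice (log2 fold change -0.33, SE 0.07, FDR 0.0174 in edgeR's quasi-likelihood test). Ret, the signaling co-receptor of GDF15 with GFRAL, had 9.59 to 11.7 CPM in LLC1 and 12.9 to 21.5 CPM in PBS mice (log2 fold change -0.61, SE 0.15, FDR 0.0248 in the same test). Its partner Gfral had 0 counts in every library.

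Inside the cell, 0 of the 11 SMAD transducers and brakes were higher and 2 lower, both of them corepressors that restrain SMAD2/3 transcription. An unadjusted p under 0.05, which 4103 of all 16111 genes had, was found for 5 of the 11. Of these the other 3, named after their values were seen, had lower means in tumor-bearing mice and no call in edgeR's quasi-likelihood test. They were the transducers Smad2 (-0.30, FDR 0.0892) and Smad3 (-0.27, FDR 0.127) and the ubiquitin ligase Smurf2 (-0.24, FDR 0.0656 in that test), which limits the signal. Tgif1 had 2.45 to 3.37 CPM in LLC1 and 4.20 to 6.03 CPM in PBS mice (log2 fold change -0.70, SE 0.16, FDR 0.0213 in edgeR's quasi-likelihood test). Skil (SnoN) fell by 0.45 on the log2 scale (SE 0.11, FDR 0.0305 in the same test), with PBS 2-1 inside the LLC1 range. None of the 6 genes commonly induced by SMAD2/3 was called, and 4 had an unadjusted p under 0.05. Those with the lowest p were Pmepa1, an inducible inhibitor of the pathway (log2 fold change -0.27, FDR 0.0595), and Ctgf, a matricellular protein (0.34, FDR 0.108 in edgeR's quasi-likelihood test).

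Of 6 atrophy ligases and FOXO factors, 3 were higher and 0 lower. Foxo3, a transcription factor that drives the atrophy ligases, had 126, 134, 135 and 157 CPM in LLC1 mice 1-2, 1-3, 1-5 and 2-2 and 93.3, 91.2, 97.3 and 111 CPM in PBS mice 1-1, 1-3, 2-1 and 2-5. The groups did not overlap, with a log2 fold change of 0.49 (SE 0.08, FDR 0.00611 in edgeR's quasi-likelihood test). The other 2 were the ubiquitin ligases Trim63 (MuRF1; 0.34, FDR 0.0213) and Fbxo32 (atrogin-1; 0.45, FDR 0.0407 in the same test), and Fbxo32 had an FDR of 0.0914 with scaling to total counts only. Summed cardiomyocyte markers, mostly Myh6, were also higher in tumor-bearing mice, and their part in these differences was not tested. Of 9 stress genes that accompany Gdf15, 8 were tested and 0 called. Those with the lowest p were Chac1 (0.66, FDR 0.175), which degrades glutathione, and Asns (-0.30, FDR 0.392 in edgeR's quasi-likelihood test), the asparagine synthetase. One of the 8, Chac1, had an unadjusted p under 0.05 (0.0409).

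**Figure D5:**
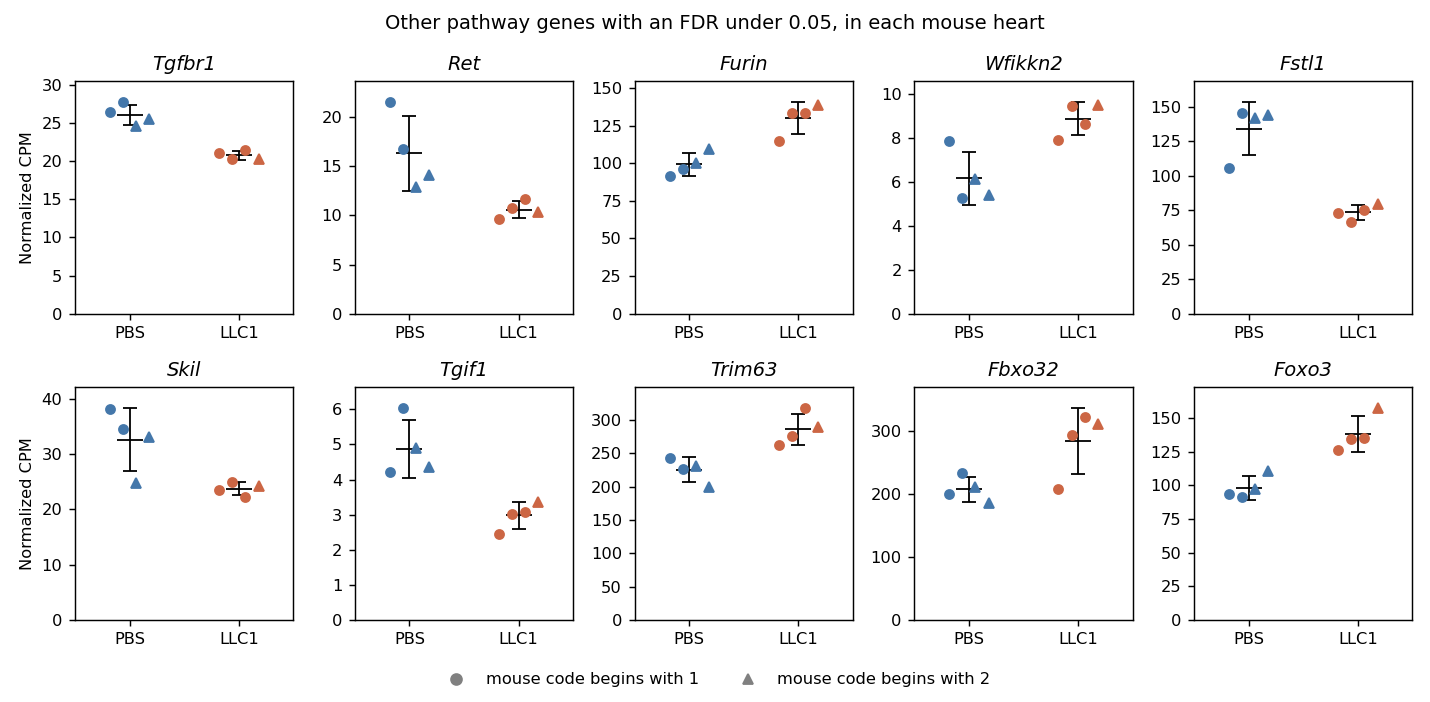
Normalized CPM in each mouse of the 10 other pathway genes called by edgeR's quasi-likelihood test (vertical axes from 0), with group mean and SD in black (n = 4 each) and symbols by mouse code as in the plot of the 10 family genes. Fstl1 lies at 66.1 to 79.4 CPM in LLC1 against 105 to 145 CPM in PBS mice, and the groups of Skil and Fbxo32 overlap.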

How the data were processed

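Ventricular RNA was isolated with miRNeasy kits, and TruSeq RNA v2 libraries were sequenced on an Illumina HiSeq instrument. The authors deposited whole-number read counts per gene for each mouse on mm10, without normalization. The submitters' processing notes name CASAVA, STAR and featureCounts, and their versions, the annotation release and the strand setting are not given in the sources used here. All 8 samples were grouped by the labelled injection. The table had 0 columns that belong to no sample.

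Genes were kept by filterByExpr (minimum count 10), scaled with TMM factors and compared by edgeR's quasi-likelihood F-test (edgeR 4.0.16 in R 4.3.3), with Benjamini-Hochberg adjustment over all 16111 genes and a call at an FDR under 0.05. Intervals of 95% use the quasi-likelihood degrees of freedom. Genes below the filter were given by counts. Exact two-sided permutation tests used mean log2 CPM (prior count 2) over all assignments of the mice to the groups, unadjusted. Intervals and floors cover counting error and the spread between these mice only.

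Alternatives were DESeq2 1.42.0, limma-voom (limma 3.58.1), robust empirical Bayes, upper-quartile scaling, scaling to total counts, no filter, at least 10 counts in every mouse, the first number of the mouse code as a covariate, and each mouse left out. All 10 members were described, whatever their values. Genes of the other lists were named where called or, in a list with none called, for the 2 with the lowest p. Smad2, Smad3, Smurf2, Gfral and the cell markers named fall outside that rule and were chosen after their values were seen. The members, lists and tests were chosen with earlier results of these data known. Similar transcripts were searched with BLAST 2.17.0, and 0 members had a transcript of another gene at 97% identity over 150 bases. Overlaps on the other strand were read from GENCODE M21. Start regions came from RefSeq (GRCm38.p6), with windows for 9 of the 10 members. The steps were tested on simulated data. Python 3.11.15, numpy 2.4.6, pandas 2.3.3 and matplotlib 3.10.9 were used.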

Additional observations from a re-analysis of the deposited data

Results flagged for a closer look

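In 30 groups of 4 mice (each member in each group, and the sums and ratios), 2 values stood far from the other 3, where chance flags about 1 in 20 groups. LLC1 2-2 had 5.89 CPM of Fstl3, against 4.48 to 4.70 CPM in the other tumor-bearing mice. PBS 2-1 had a summed receptor level of 12.2 CPM per kilobase, against 11.1 to 11.2 in the other PBS-injected mice.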

How the results depend on the processing

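In all 16 alternatives 0 members were called. An unadjusted p under 0.05 was reached by 2 members with no filter (Fst and Acvr1b) and by 2 with the first number of the mouse code as a covariate (Acvr1b and Acvr2b). With 1 mouse left out it was reached by Inhbb (without PBS 1-1), Acvr2b (PBS 2-1), Fstl3 (LLC1 2-2), Gdf11 and Acvr2a (PBS 2-5) and Acvr1b (LLC1 1-5 or PBS 2-5), at FDR values of 0.0624 to 0.210 in edgeR's quasi-likelihood test. Genes called numbered 1406 (663 higher, 743 lower) and 1018 to 1757 over the 8 alternatives that keep every mouse. Scaling to total counts called 225 higher, so that 22.1% of calls were higher against 47.2%, moved the median log2 fold change of all genes from -0.01 to -0.06, and gave Fst a difference of 0.93 in mean log2 CPM (exact permutation p = 0.0571). With 1 mouse left out, 542 to 1949 genes were called (212 to 908 higher, 330 to 1041 lower) and 2 to 11 pathway genes, with the fewest without PBS 1-3. In those fits the log2 fold change ran from -0.26 to 0.084 for Gdf15, 0.13 to 0.44 for Inhbb, -0.50 to -0.26 for Gdf11, 0.13 to 0.24 for Acvr1b and -0.32 to -0.15 for Fstl3. The difference in mean log2 CPM ran from -0.84 to -0.45 for Mstn, -0.66 to -0.22 for Inhba, -0.23 to 0.052 for Gdf15, 0.70 to 1.13 for Fst, -0.26 to -0.070 for Acvr2a and 0.30 to 0.47 for Acvr2b. The log2 ratio ran from -0.14 to 0.067 for antagonists to ligands, positive without LLC1 1-3 (0.056), LLC1 1-5 (0.067) or PBS 1-3 (0.013), and from 0.38 to 0.68 for Acvr2b to Acvr2a. The causes were not tested. Gdf15 has no value where every mouse must have 10 counts. No paired analysis was possible because the groups share 1 code (1-3), carried by different animals. Depth limits Mstn, Inhba and Fst most, at 15 or fewer counts per library.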
